A study of Homo sapiens with 12 samples.

Results

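The genes described are 10 targets of the hypoxia-inducible factors (HIF): ANKRD37, MIR210HG, HILPDA, NDRG1, EGLN3, P4HA1, P4HA2, BNIP3L, KDM3A and VEGFA. They were taken by name, and every probe set that the platform's table assigns to 1 of them alone was included, which gave 16 of the 17319 single-gene probe sets and 10 of the 10346 genes they read. The members were chosen by their levels on these arrays, above all NFKB1 siRNA against control siRNA, so that comparison is given as values without a test. The arrays measured total RNA of U251, an established human glioblastoma cell line, at a time after transfection that the labels do not state. The 4 groups of 3 arrays were ETV6 siRNA, NFKB1 siRNA, both together (here double siRNA) and a control siRNA that matches no human transcript known. The ETV6 and NFKB1 siRNAs were ON-TARGETplus SMARTpools, every siRNA was used at 50 nM with the reagent Dharmafect 2, and protein levels were not analysed here. ETV6 is an ETS family repressor of transcription; NFKB1 encodes p105, from which the NF-kB subunit p50 is cut. The labels name no change of oxygen in any group, nor do they state whether a group's 3 arrays are 3 cultures, so the p-values cover the spread among arrays, which may be technical. In cultures measured whole, fewer cells that express a gene and less RNA per cell cannot be told apart.

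HIF is a transcription factor made of an oxygen-regulated alpha subunit (HIF1A or EPAS1) and the partner ARNT. With oxygen present, prolyl hydroxylases of the EGLN family mark the alpha subunit, the VHL ligase binds it and it is degraded; with little oxygen it persists, enters the nucleus and binds sites with a core of ACGTG or GCGTG near its targets. The targets serve oxygen supply, glycolysis, matrix hydroxylation, mitochondrial removal and feedback, and in glioblastoma they are a known feature of the cells around necrosis.

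The promoters of 3 members are shown because they carry that core and because the 3 genes differ in the group where they were highest: ANKRD37 and MIR210HG with NFKB1 siRNA, P4HA1 with double siRNA. Each sequence is the 250 bases before the gene's start on the gene's strand, from RefSeq on GRCh38.p14, and capitals mark every match to ACGTG or GCGTG on either strand. The ANKRD37 window is chr4:185396591-185396840 (+ strand), the MIR210HG window chr11:568458-568707 (- strand) and the P4HA1 window chr10:73096867-73097116 (- strand).
ANKRD37: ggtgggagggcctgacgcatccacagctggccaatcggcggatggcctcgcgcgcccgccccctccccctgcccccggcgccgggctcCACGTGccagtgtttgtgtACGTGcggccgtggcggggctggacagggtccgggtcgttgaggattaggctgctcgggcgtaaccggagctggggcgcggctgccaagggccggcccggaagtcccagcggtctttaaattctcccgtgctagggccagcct
MIR210HG: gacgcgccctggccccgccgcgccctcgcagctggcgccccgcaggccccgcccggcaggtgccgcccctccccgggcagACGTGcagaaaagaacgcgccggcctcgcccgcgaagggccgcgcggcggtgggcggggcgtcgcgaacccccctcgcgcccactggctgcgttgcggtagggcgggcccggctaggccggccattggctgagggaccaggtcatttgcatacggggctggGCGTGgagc
P4HA1: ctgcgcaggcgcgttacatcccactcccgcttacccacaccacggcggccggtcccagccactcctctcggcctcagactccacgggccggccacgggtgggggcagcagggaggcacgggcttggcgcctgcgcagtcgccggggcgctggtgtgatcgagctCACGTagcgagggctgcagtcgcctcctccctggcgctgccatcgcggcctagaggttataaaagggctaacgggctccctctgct
ANKRD37 held 3 matches to ACGTG, of which 2 overlap on opposite strands in the run of capitals from 162 to 157 bases before the start. MIR210HG held 1 ACGTG and 1 GCGTG, and P4HA1 held 1 ACGTG on the opposite strand, from 86 to 82 bases before the start. Windows were given for 6 members, and 4 of these held a match, KDM3A being the fourth, and EGLN3 and P4HA2 held none in these 250 bases. A match was present in 43.2% of all 35116 promoter windows of this length, so these matches are descriptions of the sequence and not evidence of binding. HILPDA, NDRG1, BNIP3L and VEGFA had no window to search.

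MIR210HG is the host transcript of miR-210, a microRNA that is induced with HIF and lowers mitochondrial iron-sulfur assembly and respiration proteins. The array reads the host transcript, and the mature strand, with its seed at bases 2 to 8 in capitals, is shown to name the product and was not measured.
hsa-miR-210-3p: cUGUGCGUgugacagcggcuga

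Across the series, 7760 genes were tested, each by its brightest probe set on average, with genes under the 25th percentile (log2 7.54) left out. All 10 genes passed, and 4 of their other 6 probe sets read below that level. ETV6 RNA fell by 2.14 with ETV6 siRNA and by 1.51 with double siRNA on the log2 scale, and NFKB1 RNA, which lay below the 25th percentile, fell by 0.73 and by 0.77 with its siRNA alone and with double siRNA. The glioma and astrocyte markers GFAP, VIM and SOX2 were among the brightest genes of the arrays. S100B, another such marker, read lower, at a mean of 8.68, and the levels of the rest are not given here. Of 12 such markers 10 were tested. Of 16 markers of epithelial, immune, endothelial and neuronal cells 4 had a probe set and 3 were tested. With double siRNA 1 of the 10 rose against control, S100B (0.38), and 4 fell, among them NES (-1.16, adjusted p = 1.12e-06) and GFAP (-0.54, adjusted p = 7.53e-05). Of all genes 31.9% were called higher and 49% lower there. With NFKB1 siRNA 1 rose, S100B (0.49), and 4 fell, among them SLC1A3 (-0.78, adjusted p = 2.07e-05), beside 15.5% and 25.1% of all genes. With ETV6 siRNA 1 rose, CHI3L1 (0.68), and 2 fell, beside 4.38% and 6.28% of all genes. Of the 3 other markers, neuronal MAP2 rose by 1.22 with double siRNA (adjusted p = 2.52e-06; -0.20 on its second probe set), while KRT18 (-0.55) and TUBB3 (-0.26) fell; with NFKB1 siRNA MAP2 fell by 0.53. The double siRNA arrays stood apart in control probe sets: the poly-A spike-ins read 7.97 to 8.05 there against 8.37 to 9.35 in the other 9 arrays. The 3' minus 5' difference of the GAPDH and ACTB control probe sets, a measure of how far RNA is shortened, was 1.25 to 1.34 against 0.96 to 1.22, and control siRNA replicate 3 held the highest value of the 9. That array also lay farthest from its group. The part of these differences, and of the changes in markers, in the results below was not tested. Every comparison with control shares the same 3 control arrays. In double siRNA against ETV6 siRNA neither these nor the NFKB1 siRNA arrays enter the difference. All 12 arrays set the spread behind its p-values, and the members were chosen with the levels on these arrays known. That comparison is thus not free of the choice of members either.

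The 10 genes are set out here by whether their NFKB1 siRNA arrays overlapped control. Those that did not overlap differed among themselves with double siRNA, as given below. With NFKB1 siRNA 7 of them, ANKRD37, MIR210HG, HILPDA, NDRG1, P4HA2, EGLN3 and VEGFA, lay above control on all 3 arrays, by 1.25 to 2.01-fold. The other 3, BNIP3L, P4HA1 and KDM3A, overlapped control there and were 1.9 to 3.12-fold higher with double siRNA. The double siRNA levels were also known when the members were chosen. The adjusted p-values given below for members are thus not independent of that choice. Of all tested genes 19.9% lay above control on all 3 NFKB1 siRNA arrays; since the members were picked with that comparison in view, nothing is read from the 7. The median log2 change of all 10 members with NFKB1 siRNA was 0.47, against 0.01 for all genes.

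**Figure D1:**
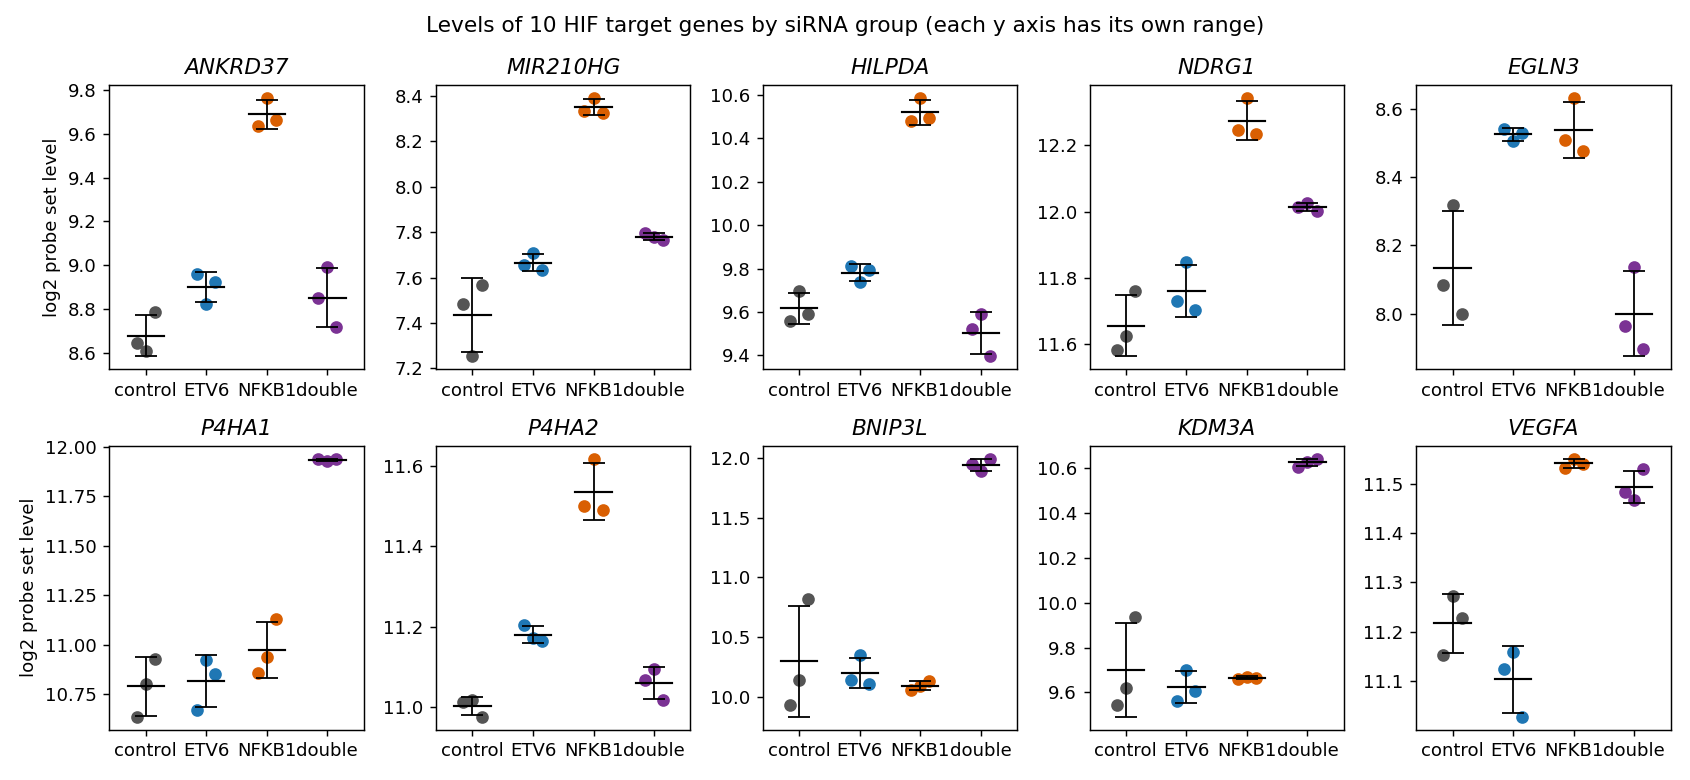
Log2 probe set level (y axis, a separate range in each panel) of the brightest probe set of each of the 10 genes in the 4 siRNA groups (x axis); points are single arrays, the horizontal line is the mean and the bar the SD of 3 arrays. In 7 panels the NFKB1 siRNA arrays lie above all control arrays, and in those of P4HA1, BNIP3L and KDM3A the double siRNA arrays lie above all other arrays.

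EGLN3 encodes a HIF prolyl hydroxylase that is itself a HIF target and so acts in negative feedback. On its brighter probe set the control arrays read 8.08, 8.32 and 8.0, the ETV6 siRNA arrays 8.54, 8.50 and 8.53, and the NFKB1 siRNA arrays 8.51, 8.63 and 8.48. With double siRNA the arrays read 7.96, 8.14 and 7.90. Each single siRNA thus lay above all control arrays and double siRNA overlapped them. EGLN3 was the member that changed most with ETV6 siRNA, 1.31-fold higher (log2 change 0.39, SE 0.08, adjusted p = 0.0134), a call lost without ETV6 siRNA replicate 1 (0.38, adjusted p = 0.052). Against ETV6 siRNA, double siRNA was 1.44-fold lower (-0.52, SE 0.08, adjusted p = 0.000119). Double siRNA did not pass against control (-0.13, adjusted p = 0.164), but was called lower with arrays set to a common median (-0.24, adjusted p = 0.02), after quantile normalization (-0.23, adjusted p = 0.0257) and without control siRNA replicate 3 (-0.20, adjusted p = 0.0409). The dimmer probe set of EGLN3, at a mean of 6.60, did not separate the groups: its changes from control were 0.17, 0.15 and 0.10 with ETV6, NFKB1 and double siRNA.

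P4HA1 and P4HA2 encode the catalytic subunits of the collagen prolyl 4-hydroxylases, which stabilise the collagen triple helix. P4HA1 read 10.64, 10.80 and 10.93 in control arrays, 10.67, 10.92 and 10.85 with ETV6 siRNA, and 10.86, 10.94 and 11.13 with NFKB1 siRNA. With double siRNA it read 11.94, 11.93 and 11.94, above every other array. It rose 2.21-fold against control (log2 change 1.15, SE 0.09, adjusted p = 1.93e-06) and 2.17-fold against ETV6 siRNA (1.12, adjusted p = 2.12e-06). P4HA2 showed another order: 11.01, 11.02 and 10.98 in control arrays, 11.20, 11.17 and 11.17 with ETV6 siRNA, and 11.50, 11.62 and 11.49 with NFKB1 siRNA. Double siRNA brought it to 11.07, 11.09 and 11.02, which overlaps control and lies below ETV6 siRNA. P4HA2 was 1.45-fold above control with NFKB1 siRNA (0.53, SE 0.05). With ETV6 siRNA it was 1.13-fold higher (0.18, SE 0.05, adjusted p = 0.034), a call lost without any 1 of the 3 control arrays, the 3 ETV6 siRNA arrays or double siRNA replicates 1 and 2 (adjusted p up to 0.109 without ETV6 siRNA replicate 1). Double siRNA did not pass against control (0.06, adjusted p = 0.279; -0.05 with arrays set to a common median). Against ETV6 siRNA it was lower by 0.12 on the log2 scale (adjusted p = 0.0314), which was lost without any 1 ETV6 siRNA array or without double siRNA replicate 1 or 3 (adjusted p up to 0.112 without double siRNA replicate 3).

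VEGFA encodes the secreted factor that drives blood vessel growth and leak in glioblastoma. Its brightest probe set read 11.15, 11.27 and 11.23 in control arrays, 11.12, 11.16 and 11.03 with ETV6 siRNA, 11.53, 11.55 and 11.54 with NFKB1 siRNA, and 11.48, 11.47 and 11.53 with double siRNA. The last 2 groups lay above every control and ETV6 siRNA array and differed from each other by 0.05. VEGFA was 1.25-fold above control with NFKB1 siRNA (0.32, SE 0.05) and rose 1.21-fold with double siRNA (0.28, SE 0.05, adjusted p = 0.000293). Double siRNA was 1.31-fold above ETV6 siRNA (0.39, adjusted p = 2.06e-05; 0.10, adjusted p = 0.0923 as the mean of its probe sets), and ETV6 siRNA did not pass against control (-0.11, adjusted p = 0.19). VEGFA had 4 probe sets, of which all 4 lay above control with NFKB1 siRNA on all 3 arrays, by 0.32, 0.64, 0.46 and 0.52. They did not share the direction with double siRNA: the changes from control were 0.28, 0.24, -0.10 and 0.25, and the third and the fourth of these probe sets were both dim, at means of 7.01 and 6.86.

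BNIP3L, also called NIX, encodes a mitochondrial outer membrane receptor that marks mitochondria for autophagy. Its brighter probe set read 9.93, 10.14 and 10.82 in control arrays, 10.14, 10.35 and 10.11 with ETV6 siRNA, and 10.06, 10.09 and 10.14 with NFKB1 siRNA. With double siRNA it read 11.94, 11.89 and 11.99, above every other array. Control siRNA replicate 3 was thus the highest of the other 9 arrays, the array that also held the highest 3' minus 5' difference among them. BNIP3L rose 3.12-fold with double siRNA against control (log2 change 1.64, SE 0.17, adjusted p = 6.87e-06; 1.90 without control siRNA replicate 3). It was 3.34-fold higher than with ETV6 siRNA (1.74, adjusted p = 4.67e-06). The second probe set also put double siRNA above all other arrays, at 10.96 to 11.13, but with a smaller change from control, 0.91.

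KDM3A encodes a histone H3 lysine 9 demethylase that needs oxygen for its activity. It read 9.54, 9.62 and 9.94 in control arrays, 9.56, 9.70 and 9.61 with ETV6 siRNA, and 9.66, 9.67 and 9.66 with NFKB1 siRNA. With double siRNA the arrays read 10.61, 10.63 and 10.64. It rose 1.9-fold against control (0.93, SE 0.08, adjusted p = 3.3e-06) and 2.00-fold against ETV6 siRNA (1.00, adjusted p = 2.44e-06), while the single siRNAs overlapped control. Here too control siRNA replicate 3 was the highest of the 9 other arrays. Within the control group it was also the highest for P4HA1, ANKRD37, MIR210HG and NDRG1.

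HILPDA encodes a protein of lipid droplets that inhibits the lipase ATGL and so favours lipid storage. The control arrays read 9.56, 9.70 and 9.59, ETV6 siRNA 9.81, 9.74 and 9.79, and NFKB1 siRNA 10.48, 10.59 and 10.49. Double siRNA read 9.52, 9.59 and 9.40, overlapping control and below every ETV6 siRNA array. HILPDA was 1.87-fold above control with NFKB1 siRNA (0.90, SE 0.06). It did not pass with ETV6 siRNA (0.16, adjusted p = 0.118). With double siRNA it was 1.21-fold lower than with ETV6 siRNA (-0.28, SE 0.06, adjusted p = 0.000959). Against control, double siRNA did not pass (-0.11, adjusted p = 0.0964) but was called lower with arrays set to a common median (-0.22, adjusted p = 0.00729), after quantile normalization (-0.19, adjusted p = 0.0134) and without double siRNA replicate 2 (-0.16, adjusted p = 0.0432).

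NDRG1 is a stress-induced gene whose product acts in membrane trafficking and differentiation. It read 11.58, 11.62 and 11.76 in control arrays, 11.73, 11.85 and 11.70 with ETV6 siRNA, 12.24, 12.34 and 12.23 with NFKB1 siRNA, and 12.01, 12.03 and 12.002 with double siRNA. The order of the groups was NFKB1 siRNA, then double siRNA, then the overlapping control and ETV6 siRNA arrays. NDRG1 was 1.54-fold above control with NFKB1 siRNA (0.62, SE 0.06), rose 1.28-fold with double siRNA (0.36, adjusted p = 0.000157) and was 1.19-fold higher with double than with ETV6 siRNA (0.25, adjusted p = 0.0016). ETV6 siRNA did not pass (0.10, adjusted p = 0.327).

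ANKRD37, an ankyrin repeat gene induced by HIF, showed the highest fold with NFKB1 siRNA among the members. Its control arrays read 8.64, 8.61 and 8.79, ETV6 siRNA 8.96, 8.82 and 8.92, NFKB1 siRNA 9.64, 9.76 and 9.66, and double siRNA 8.85, 8.99 and 8.72. The NFKB1 siRNA arrays lay 2.01-fold above control (1.01, SE 0.08), and double siRNA overlapped both control and ETV6 siRNA. With ETV6 siRNA all arrays lay above control without passing (0.22, adjusted p = 0.0888; 0.27, adjusted p = 0.0369 without control siRNA replicate 3). With double siRNA the change passed at the threshold (0.17, adjusted p = 0.0499). That call was lost without any 1 array other than control siRNA replicate 3 and double siRNA replicate 3 (adjusted p up to 0.219 without double siRNA replicate 2), after quantile normalization (0.09, adjusted p = 0.247), with arrays set to a common median (0.06, adjusted p = 0.424) and in the replicate block fit (adjusted p = 0.0741). Against ETV6 siRNA double siRNA did not pass (-0.05, adjusted p = 0.549).

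MIR210HG read 7.48, 7.25 and 7.57 in control arrays, 7.65, 7.71 and 7.63 with ETV6 siRNA, 8.34, 8.39 and 8.33 with NFKB1 siRNA, and 7.80, 7.78 and 7.77 with double siRNA. No knock-down group overlapped control, and NFKB1 siRNA was the highest. The host transcript was 1.89-fold above control with NFKB1 siRNA (0.92, SE 0.07) and rose 1.27-fold with double siRNA (0.34, SE 0.07, adjusted p = 0.000651). With ETV6 siRNA it did not pass (0.23, adjusted p = 0.0561) but was called with arrays set to a common median (0.24, adjusted p = 0.0401), after quantile normalization (0.24, adjusted p = 0.027) and without control siRNA replicate 3 (0.30, adjusted p = 0.0117). Double siRNA did not pass against ETV6 siRNA (0.11, adjusted p = 0.137), but was called as the mean of both probe sets (0.27, adjusted p = 0.00712), under array weights (0.12, adjusted p = 0.0427), with the compared groups fitted alone (adjusted p = 0.0314) and without control siRNA replicate 2 (adjusted p = 0.0357). A second, dim probe set gave 0.20, 0.96 and 0.62 with ETV6, NFKB1 and double siRNA.

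**Figure D2:**
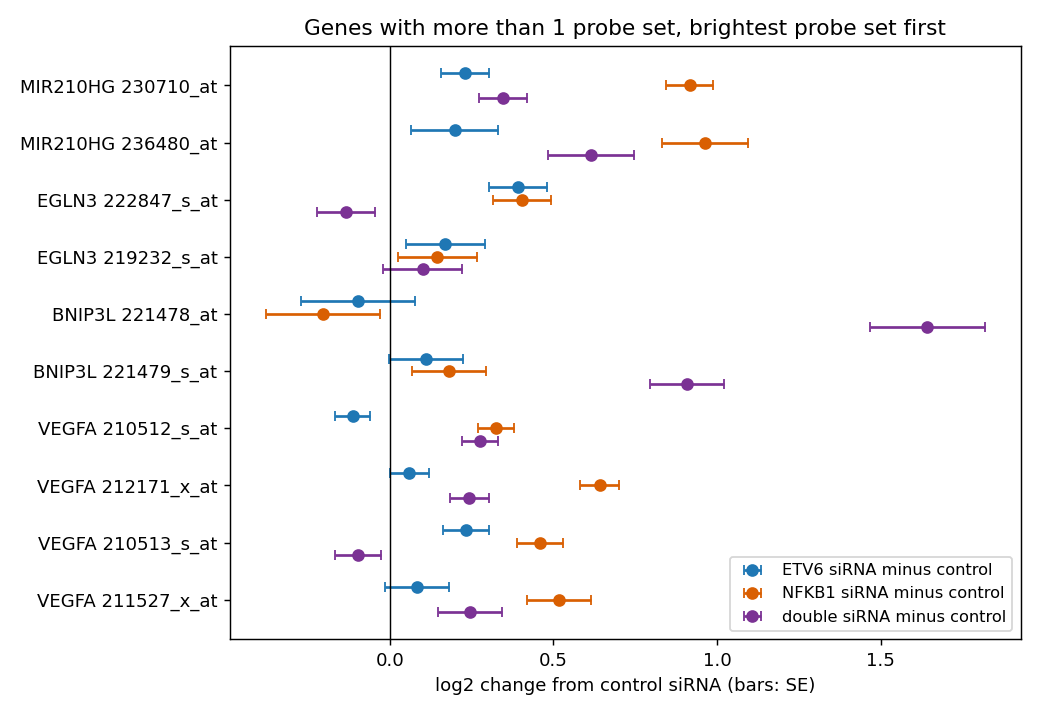
Log2 change from control siRNA (x axis, bars are SE, n = 3 arrays per group) for each probe set (y axis, brightest first within a gene) of the 4 members with more than 1; colours mark the siRNA group. With NFKB1 siRNA the 4 VEGFA and both MIR210HG probe sets lie above 0, while the dimmer EGLN3 probe set, at 0.15, overlapped control.

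Over the 10 genes, ETV6 siRNA changed 2, EGLN3 and P4HA2, both higher, where 4.38% of all genes were called higher and 6.28% lower; 5 members lay above control on all 3 arrays, as did 11.8% of all genes. These counts, like those of double siRNA against control, reuse the control arrays on which the members were chosen, so nothing is read from them against the shares of all genes. The median of the members was 0.13 against 0.00 for all genes. The count was 0 without ETV6 siRNA replicate 1 and 0 with only the groups compared. It was 1 without control siRNA replicate 1 or 2, ETV6 siRNA replicate 2 or 3, or double siRNA replicate 1 or 2, and 3 without control siRNA replicate 3. Double siRNA raised 7 of 10 against control and lowered none; 31.9% of all genes were called higher and 49% lower there. It lay above control on all arrays for 6 members and for 33.5% of all genes. The members' median was 0.31, against -0.13 for all genes. With arrays set to a common median, which moved the all-gene median to -0.24, 6 were higher and 2 lower, HILPDA and EGLN3; 1 was lower without control siRNA replicate 3 (EGLN3) and 1 without double siRNA replicate 2 (HILPDA). Against ETV6 siRNA, double siRNA raised 5 members (NDRG1, P4HA1, BNIP3L, KDM3A and VEGFA) and lowered 3 (HILPDA, EGLN3 and P4HA2). Of all genes 34.9% were called higher and 51.2% lower in it, so most genes differed in it. On all arrays 6 members lay above ETV6 siRNA and 3 below, against 36.6% and 53.4% of all genes. The all-gene median was -0.15 there and -0.27 with arrays set to a common median, and that of the members 0.18. Since the members were chosen with the levels on these arrays known, nothing is read from these counts and medians against those of all genes.

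**Figure D3:**
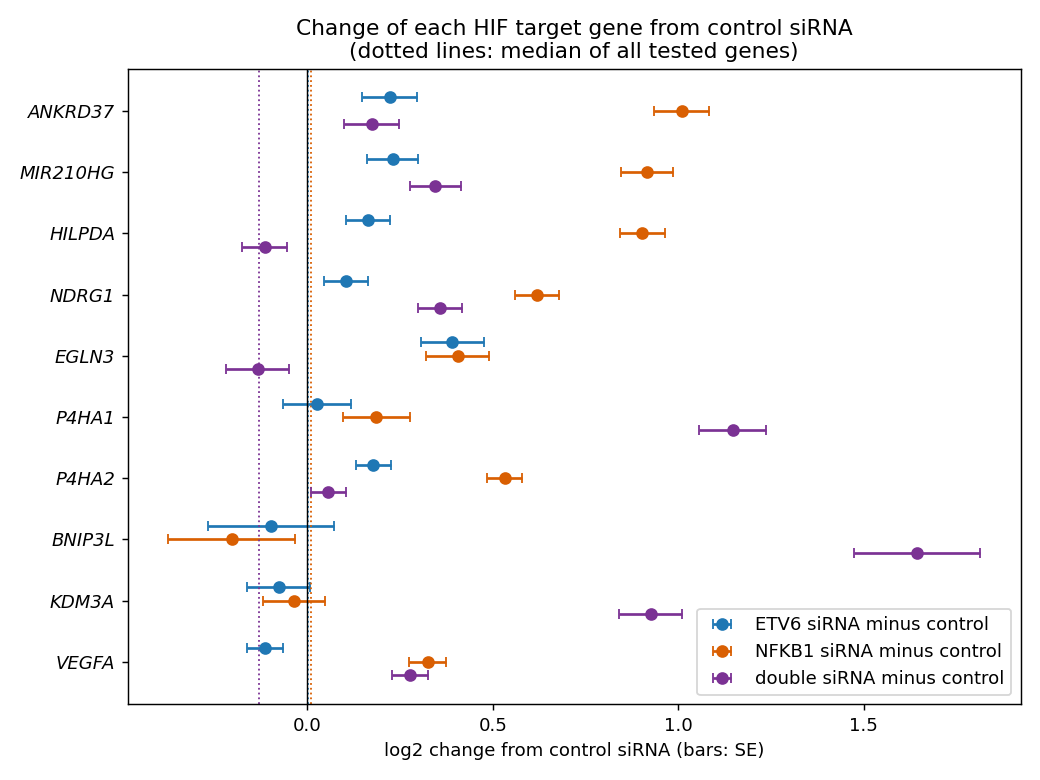
Log2 change of each member (y axis) from control siRNA (x axis) with ETV6, NFKB1 and double siRNA; points are the differences of the means of 3 arrays and bars their SE, and the dotted lines are the medians of all tested genes. BNIP3L, P4HA1 and KDM3A reach 1.64, 1.15 and 0.93 with double siRNA, and ANKRD37 reaches 1.01 with NFKB1 siRNA.

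NFKB1 siRNA against control and double against ETV6 siRNA can be set side by side, from arrays that do not overlap. The second need not be the effect of NFKB1 siRNA alone. ETV6 RNA was 0.64 higher with double than with ETV6 siRNA (limma, adjusted p = 0.000157). With each siRNA at 50 nM, double siRNA may also have held more siRNA in all. The part of either was not tested. In the first comparison 7 members lay above control. In the second, 3 of the 7 lay above ETV6 siRNA (MIR210HG, NDRG1 and VEGFA), 3 below (HILPDA, EGLN3 and P4HA2) and ANKRD37 overlapped. Of the 1542 tested genes above control with NFKB1 siRNA, 9.4% lay above ETV6 siRNA with double siRNA and 80% below; as shares of all tested genes these are 1.87% and 15.9%. All 7 members that were above control with NFKB1 siRNA were lower with double than with NFKB1 siRNA on all arrays, as were 52.4% of all genes, ranging from -0.05 for VEGFA to -1.02 for HILPDA. The same held for 89.8% of the 1542 tested genes that were above control with NFKB1 siRNA, a share near that of the members. For VEGFA the 2 groups all but touched. Around the gene's mean, its lowest NFKB1 siRNA array was at 0.194 and its highest double siRNA array at 0.191. The dim second probe set of MIR210HG overlapped between the 2 groups.

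**Figure D4:**
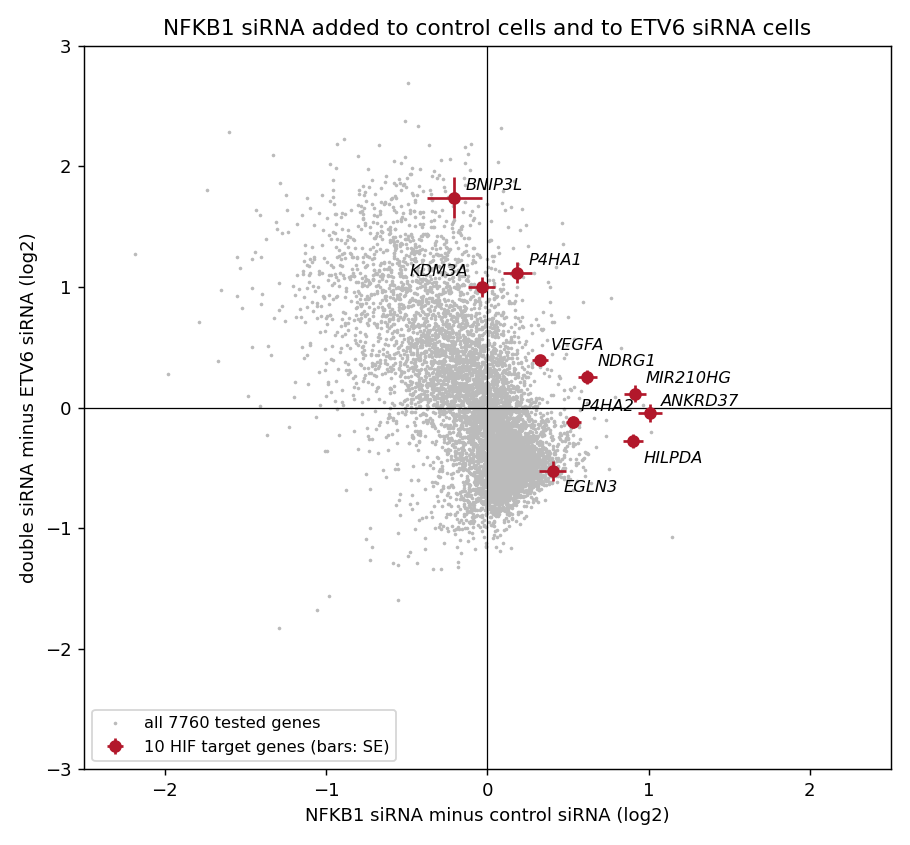
Log2 difference of NFKB1 siRNA minus control siRNA (x axis) and of double siRNA minus ETV6 siRNA (y axis) for all 7760 tested genes (grey) and the 10 members (red, bars are SE). BNIP3L, P4HA1 and KDM3A lie high on the y axis near 0 on the x axis, and HILPDA, EGLN3 and P4HA2 lie right of 0 on the x axis and below 0 on the y axis.

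Among the regulators of HIF itself, the number of calls with NFKB1 siRNA depended on the processing. Of 16 tested regulators NFKB1 siRNA raised 1 and lowered 2, where 15.5% of all genes were called higher and 25.1% lower. Over the alternatives the number raised ran from 0 to 4, and the number lowered was 5 under array weights. HIF1A, the oxygen-regulated subunit, fell by 0.29 (SE 0.07, adjusted p = 0.00516) and HSP90AA1, a chaperone that binds it, fell by 1.00 (adjusted p = 3.6e-06). SIAH2, a ligase that degrades prolyl hydroxylases, rose by 0.37 (adjusted p = 0.00408). EPAS1 (-0.05), ARNT (-0.05) and HIF1AN, the asparaginyl hydroxylase that limits HIF activity (0.15), did not pass. With double siRNA 4 regulators rose and 7 fell against control, shares near the 31.9% and 49% of all genes: HIF1A rose by 0.74 (SE 0.07, adjusted p = 3.02e-06), CUL2, the scaffold of the VHL ligase, by 1.29 (adjusted p = 1.59e-05), while HIF1AN fell by 0.50 and EPAS1 by 0.22. EGLN1, the main HIF prolyl hydroxylase, was 0.90 higher on its brightest probe set (adjusted p = 3.18e-06), and its 2 other probe sets gave -0.02 and 0.00. ETV6 siRNA raised 1 regulator, CITED2, which competes with HIF for its co-activators, by 0.57 (adjusted p = 0.0312), a call lost without any 1 of the ETV6 siRNA arrays, which left 0. VHL and EGLN2 were not analysed here.

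Among 32 other tested HIF targets outside glycolysis, drawn up from general knowledge with earlier results of these data known, NFKB1 siRNA raised 18 and lowered 4. Of all genes 15.5% were called higher and 25.1% lower there. The median of the list was 0.26 against 0.01 for all genes. Given how the list was drawn up, nothing is read from its counts or medians against those of all genes. This holds for double and ETV6 siRNA too. The direction of calls over all genes moved with the scaling: with the values as deposited, genes called higher made up 38.1% of all calls, 62.2% with arrays set to a common median and 57.5% after quantile normalization. These targets had 15 or more higher in every alternative. That is a count of genes and not a share of calls, so it is not set against those percentages. ZNF395, a transcription factor gene, was at 0.79 (SE 0.06, adjusted p = 3.34e-06), RAB20, a GTPase of endosomes and mitochondria, at 0.74 (adjusted p = 7.1e-05), and DDIT4, an inhibitor of mTORC1, at 0.51 (adjusted p = 2.35e-05). BNIP3, the relative of BNIP3L in mitophagy, rose by 0.33 (adjusted p = 0.00473) where BNIP3L overlapped control. CA9, a carbonic anhydrase used as a hypoxia marker, was not analysed here.

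With double siRNA the same list had 20 higher and 7 lower against control, and 4 lower without control siRNA replicate 2; against ETV6 siRNA it had 16 higher and 9 lower (median 0.12 against -0.15). Of all genes 31.9% were called higher and 49% lower in the first of these comparisons, and 34.9% and 51.2% in the second. The collagen lysyl hydroxylase gene PLOD2 was at 1.13 (SE 0.10, adjusted p = 2.82e-06) against control and 1.26 against ETV6 siRNA. INSIG2, which holds back sterol synthesis, was at 1.29 (adjusted p = 2.79e-06) and 1.34, WSB1, a ubiquitin ligase subunit, at 0.96 and 0.87, and BNIP3 at 0.58 and 0.65. With NFKB1 siRNA PLOD2 was at -0.12, INSIG2 at 0.25 and WSB1 at 0.17, and of these only WSB1 passed (adjusted p = 0.0461). LOXL2, a lysyl oxidase that crosslinks collagen, fell by 0.50 and by 0.71 in the 2 comparisons. With ETV6 siRNA 3 of the list rose, ZNF395 (0.25), ADM (0.27), which encodes the vessel-dilating peptide adrenomedullin, and BHLHE40 (0.17), a repressor of clock genes. That count was 0 without ETV6 siRNA replicate 1 or 2, 1 without replicate 3, 7 without control siRNA replicate 2 and 5 without control siRNA replicate 3.

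Of 20 tested glycolytic HIF targets, also drawn up with earlier results of these data known, NFKB1 siRNA raised 13 and lowered none. Nothing is read from the 13 against the share of all genes. The direction of calls over all genes also moved with the scaling, as given above. Double siRNA against ETV6 siRNA raised 1 and lowered 10. In the second comparison 34.9% of all genes were called higher and 51.2% lower, so the share lowered among the glycolytic targets was near that of all genes; in the first the shares were 15.5% and 25.1%. PFKFB4, a regulator of glycolytic flux, was at 1.02 (SE 0.06, adjusted p = 7.31e-07) and -0.20 (adjusted p = 0.00488) in these comparisons, and PDK1, which closes the entry of pyruvate into mitochondria, at 0.17 and 1.88 (0.55 and 0.48 on a dimmer probe set). Against control, double siRNA had 3 of them higher and 6 lower; the 3 were 1 without control siRNA replicate 1, NFKB1 siRNA replicate 2 or double siRNA replicate 2. ETV6 siRNA raised 3 (PFKFB4, GPI and HK2), which was 1 without any 1 ETV6 siRNA array and 5 without control siRNA replicate 1.

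**Figure D5:**
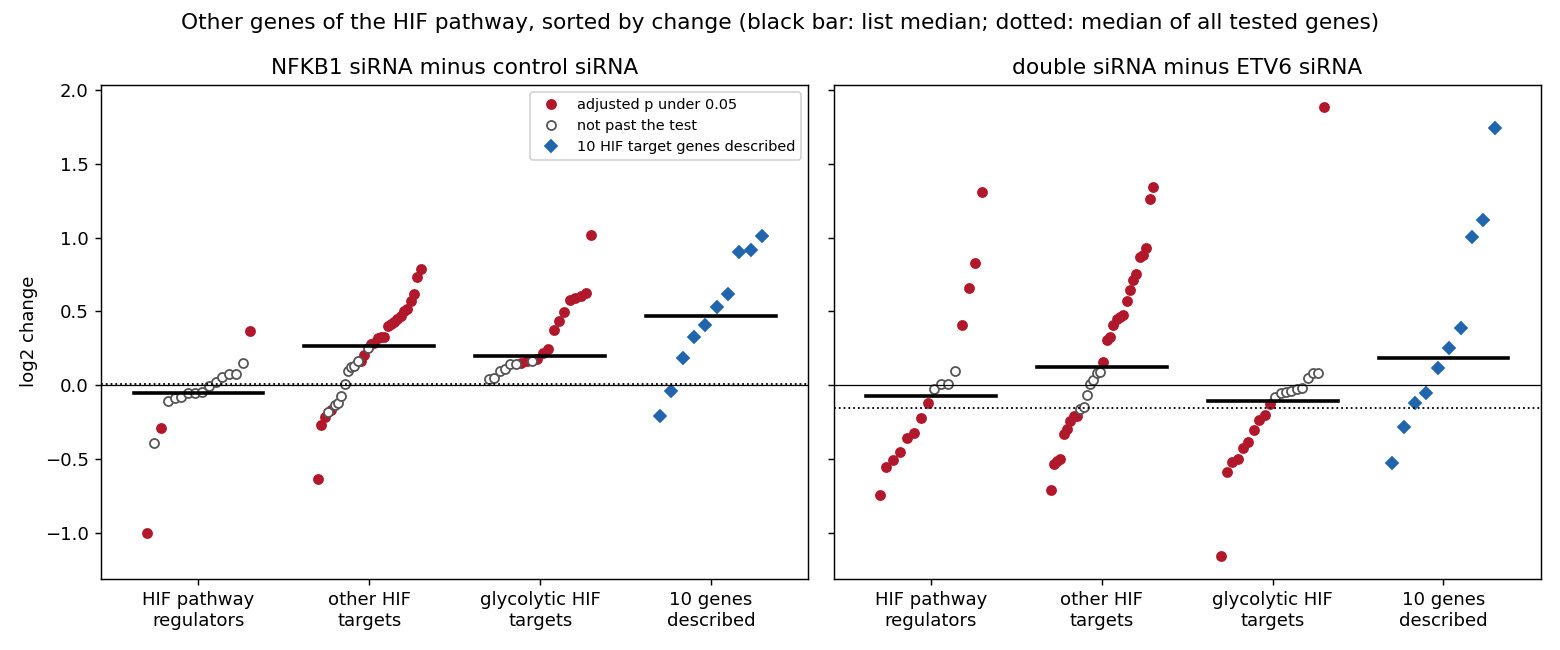
Log2 change (y axis) of each tested gene in 3 lists of the HIF pathway and of the 10 members (x axis) for NFKB1 siRNA minus control (left) and double minus ETV6 siRNA (right); red points passed the test, open points did not, blue points are the members, given without a test at left, and the black bar is the list's median. At left the medians of the other and the glycolytic HIF targets are 0.26 and 0.20 against 0.01 for all genes. At right they are 0.12 and -0.10 against -0.15. The lists were drawn up with earlier results of these data known.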

How the data were processed

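The authors deposited 1 log2 level per probe set and array; per the labels, biotin-labelled cRNA was hybridized to Affymetrix arrays, and background, summarization and normalization are not given in the sources used here. No column was left unused (0). Genes were named from the platform's probe table: of 19520 probe sets 17319 named 1 gene, 857 several and 1344 none or were controls. Each of 10346 genes was read by its brightest probe set, and 7760 were tested after the filter, with ETV6, NFKB1 and the 10 members kept whatever their level.

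Tests used limma 3.58.1 under R 4.3.3, with 4 group means estimated jointly from the 12 arrays (lmFit, eBayes; two-sided; Benjamini-Hochberg over all genes tested; adjusted p under 0.05 called). The code was tested on simulated data. An exact permutation test of 3 against 3 arrays cannot give a p below 0.1. Arrays with the same replicate number did not deviate together throughout: correlations ran from -0.52 to 0.48, and 5 of 18 pairs were over 0.1. No block was used in the main fit. No 2 arrays were identical (0 pairs).

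The members, lists and alternatives were chosen with earlier results of these data known. Named genes were the members, ETV6, NFKB1, HMOX1, HIF1A, EPAS1, ARNT, VHL, EGLN1, EGLN2, HIF1AN, PFKFB4, BNIP3 and CA9, up to 4 called genes with the smallest adjusted p per list and comparison, and the 8 genes with the most similar profile; LOXL2, PGF, VEGFB and the cell type markers were chosen after their values were seen. Alternatives were 2 scalings, 2 filters, 2 treatments of probe sets, array weights, robust eBayes with trend, a replicate block, fits of the compared groups alone, and left-out arrays.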

Additional observations from a re-analysis of the deposited data

Results flagged for a closer look

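In 3 members the NFKB1 siRNA arrays all lay above the control arrays while the double siRNA arrays all lay below the ETV6 siRNA arrays. For P4HA2 the second change, -0.12, was smaller than the all-gene median of -0.15, and its call was lost with single arrays left out. The dimmer EGLN3 probe set did not separate the groups. The difference of the 2 changes, double minus ETV6 minus NFKB1 siRNA plus control, was -1.18 for HILPDA, -0.93 for EGLN3 and -0.65 for P4HA2 on the log2 scale. Its median over all genes was -0.18. The difference was not tested, because the members were chosen with the NFKB1 siRNA values known. The same pattern was seen in 15.9% of all tested genes, and in 80% of the 1542 tested genes whose NFKB1 siRNA arrays lay above control; among the members it was 3 of the 7 that lay so.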

How the results depend on the processing

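There were 23 alternatives, 12 of which left out 1 array each; without one array its group has 2, whose spread is pooled over the groups. Of 1600 single values of the 10 members none reversed a called direction, 36 lost and 24 gained a call, and 55 values of untested comparisons moved by more than the spread between replicates. The number of arrays limits the precision. The cause of the changes below was not tested.

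Members called higher with ETV6 siRNA were 0 to 3 with 1 array left out, 1 with no filter, 5 under array weights and 0 if fitted on the compared groups alone; array weights called 1 lower. Members called lower with double siRNA against control were 0 to 1 with 1 array left out, 2 with arrays set to a common median, 2 after quantile normalization, 2 with array weights, and 1 with control siRNA 3 and ETV6 siRNA 2 both left out. The median of the members with NFKB1 siRNA was 0.43 to 0.52 with 1 array left out and 0.56 with arrays set to a common median. All other counts over the members stayed within 1.5 times, 5 to 7 higher and 3 lower for double against ETV6 siRNA beside 2 to 3 lower with 1 array left out.

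With the replicate block ANKRD37 lost its call with double siRNA (log2 change 0.17, adjusted p = 0.0741) and no other call of a member changed. The replicate numbers are not known to pair the samples.

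Every probe set tested on its own counts probe sets and not genes: regulators 2 and 1 (higher and lower) with ETV6, 4 and 8 with NFKB1, 12 lower with double siRNA and 13 lower against ETV6 siRNA; other HIF targets 5 and 1, 10 lower, 35 and 14, and 32 and 18; glycolytic targets 21 higher with NFKB1 siRNA and 3 higher against ETV6 siRNA; relatives 10 higher, 14 and 3, 9 and 11, and 5 and 18.

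For ETV6 siRNA, genes called higher were 0 to 1 (regulators), 0 to 7 (other HIF targets), 1 to 5 (glycolytic) and 2 to 6 (relatives) with 1 array left out. Array weights gave 2 and 7 higher for the first 2 lists and 1 lower in each list, only the groups compared gave 0, 0, 1 and 2, leaving out control siRNA 3 and ETV6 siRNA 2 gave 0 regulators, 1 glycolytic target and 3 relatives, quantile normalization gave 7 other and 5 glycolytic targets, robust eBayes 5 other targets, and the mean of probe sets 1 regulator lower.

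For NFKB1 siRNA, regulators higher were 4 with shifted medians, 2 after quantile normalization, 0 with the filter at the 50th percentile, 2 as the mean of probe sets and 4 with array weights, which also gave 5 lower; other HIF targets lower were 2 with shifted medians, 7 with no filter and 2 with only the groups compared, and relatives lower were 3 with no filter. For double siRNA against control, other HIF targets lower were 4 to 7 and glycolytic targets higher 1 to 4 with 1 array left out; glycolytic targets higher were 1 with shifted medians, with no filter or with only the groups compared, and 10 were lower with shifted medians. Against ETV6 siRNA, glycolytic targets higher were 3 as the mean of probe sets, 2 with array weights and 2 with robust eBayes, and relatives lower were 11 with shifted medians and 12 as the mean of probe sets.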

Other observations

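Relatives of the members, a list drawn up with the others, had 15 tested genes. NFKB1 siRNA raised 6 and lowered 1 of them, and ETV6 siRNA raised 5 and lowered none. Nothing is read from these counts against the shares of all genes, since this list too was drawn up with earlier results known. NRP1, a co-receptor of VEGFA, went opposite ways with the single siRNAs on its brighter probe set: 0.38 with ETV6 siRNA (limma, adjusted p = 0.00301) and -0.51 with NFKB1 siRNA (adjusted p = 8.59e-05). Its second probe set gave 0.15 and 0.07. P3H1, a collagen prolyl 3-hydroxylase gene, rose by 0.42 with NFKB1 siRNA (adjusted p = 0.000158) and fell by 0.38 with double siRNA (adjusted p = 6.32e-05). Against control, double siRNA raised 5 and lowered 6 of the list, among them PGF, a VEGF family growth factor gene, at 0.54 and VEGFB at -0.57; against ETV6 siRNA it raised 3 and lowered 7. Of all genes 15.5% were called higher and 25.1% lower with NFKB1 siRNA, 4.38% and 6.28% with ETV6 siRNA, 31.9% and 49% with double siRNA against control, and 34.9% and 51.2% against ETV6 siRNA. The counts with double siRNA lie near these shares. The 5 raised with ETV6 siRNA were 2 without its replicate 1 or 3 and 3 without its replicate 2 or without control siRNA replicate 3.

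HMOX1, which encodes heme oxygenase 1 and is a target of HIF among other factors, was at 1.36 with ETV6 siRNA, 1.15 with NFKB1 siRNA and 0.29 with double siRNA, all past the test (limma, adjusted p = 1.33e-07, 4.58e-07 and 0.000325).

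The 8 genes whose levels over the 12 arrays came closest to the mean profile of the 10 members were NRN1, IFT20, GSTA4, ARLN, FAM162A, S100B, CNOT11 and TAF11, with root mean square differences of 0.07 to 0.11 on the log2 scale against a median of 0.36 over 7750 genes. The members themselves differed from their mean profile by a median of 0.32, from 0.10 for NDRG1 and VEGFA to 0.70 for BNIP3L, so the mean profile describes few of them closely. FAM162A, which encodes a mitochondrial protein, is itself in the list of other HIF targets.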
